A study of Mus musculus with 27 samples.

Results

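The mitochondrial carrier family, named Slc25 in the mouse, was followed in the liver of mice that ate, sensed or went without food after a fast. Members were the rows of the deposited expression table whose gene name was Slc25a and a number, other than Slc25a20, if 3 or more of the 27 libraries had a value of 10 or higher. This kept 41 of 46 family rows, out of 15932 genes that passed the same filter among 45706 in the table. Relatives listed under other names, such as Ucp2, were not members. The 5 rows left out were Slc25a41 and Slc25a54, whose highest value was 1, Slc25a2 and Slc25a31, whose highest value was 7, and Slc25a43, which reached 10 in 1 library and stayed below it in the others. Just inside the filter was Slc25a18, with values of 1 to 18 and 11 libraries at 10 or more. The next lowest member, Slc25a35, had 52 or more in each library.

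All libraries were of liver from WT mice of the strain given as C57/BLN6, and all mice had been fasted for 16 h. Refed mice then received food, and caged food mice were given food that, per the title of the study, they could perceive, for 30, 60, 120 or 240 min each. Fasted mice were the reference for both. Each of the 9 groups had 3 libraries, which the design text calls biological replicates, so n is 3 for each group below. The comparisons ask what eating does to liver RNA over 240 min, what sensing food does, and where they part. The values, called normalised counts here, are the authors' read counts per gene scaled to a common level and rounded.

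Mitochondrial carriers are small proteins of the inner mitochondrial membrane that exchange one metabolite for another between the matrix and the cytosol. They are encoded in the nucleus and are brought in by a dedicated import route that uses small Tim chaperones. In the liver they serve gluconeogenesis, the urea cycle, the supply of citrate for fatty acid synthesis, ATP export, and the delivery of cofactors, iron and glutathione to the matrix. The liver passes from making glucose in a fast to storing it after a meal, and several of these exchanges lie on that path.

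Library totals were 40654573 to 50037562, and the depth estimated from the spacing of low values was 25.6 to 52.4 M reads. Within groups, libraries correlated at 0.979 to 0.991 (Pearson's r of log2 values across genes, as a description). For 2 libraries of 240 min, 1 titled refed and 1 titled caged food, the treatment label names the other group, and titles were used here. On a score over 200 genes that were not members, chosen by their difference at 120 min, the 3 libraries titled refed scored 0.758, 0.566 and 0.487 and the 3 titled caged food scored -0.631, -0.601 and -0.580, so all 6 stood on the side of their title. Pancreas acinar markers summed to 6408 in refed 30 min replicate 1 and to at most 710 elsewhere, and caged food 60 min replicate 2 had the highest Kupffer (25210) and leukocyte (2296) marker sums. Caged food 30 min replicate 1 had the highest sinusoidal endothelial marker sum, 28415, with at most 23406 elsewhere. Hepatocyte markers summed to 4085213 to 7494052 with none of the 7 at 0. Some marker sums moved with refeeding. In refed livers at 240 min the hepatocyte markers summed to 4085213 to 5217288, against 5382327 to 5538954 in caged food livers at 240 min and 5336694 to 6086823 in fasted livers, and Pck1, also an enzyme of gluconeogenesis, was the 1 hepatocyte marker called against fasted livers. Sinusoidal endothelial markers summed to 16420 to 17035, against 18332 to 19271 and 18901 to 20912, and stellate markers to 10441 to 13491, against 14158 to 16107 and 14120 to 15603, in the same groups, with no overlap. Against fasted livers at 240 min, 2 of 6 endothelial markers fell, Kdr (log2 fold change -0.27, limma adjusted p 0.0401) and Oit3 (-0.51, adjusted p 0.00681), as did 2 of 5 stellate markers, Colec11 (-0.52, adjusted p 0.0288) and Reln (-0.50, adjusted p 0.048). Against caged food livers at 240 min, 2 of 7 hepatocyte markers, Cyp2e1 and Pck1, fell, as did Kdr and Oit3. There, 2 of 5 cholangiocyte markers, Krt19 (0.86, adjusted p 0.0392) and Sox9 (0.79, adjusted p 0.0166), rose. Of all genes at 240 min, 11.4% fell against fasted livers, and 12.4% fell and 14.6% rose against caged food livers. The part of these other cells in the carrier results was not tested, and in whole tissue fewer cells of a type and less RNA per cell cannot be told apart.

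More carriers fell than rose in livers of mice that had eaten, and none was called in livers of mice that had only sensed food. A member was called when its adjusted p was under 0.05 in limma, with Benjamini-Hochberg adjustment over all 15932 genes. Refed against fasted livers, no member was called at 30 min, where 1.63% of all genes were called, 1.31% up and 0.326% down, and 2 members had an unadjusted p under 0.05. At 60 min 2 members rose and 5 fell, where 11% of all genes were called, 7.26% up and 3.75% down. At 120 min 1 rose and 14 fell, beside 14.1% of all genes, 7.95% up and 6.13% down. At 240 min 4 rose and 17 fell, which makes 51.2% of the 41 members, beside 24.3% of all genes, 12.9% up and 11.4% down. The median log2 fold change of the members was -0.03, -0.12, -0.24 and -0.24 at 30, 60, 120 and 240 min, against medians of all genes between -0.02 and 0.00.

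Refed against caged food livers gave a similar set of counts. Both sets of comparisons share the refed libraries, so they are set side by side and not as support for each other. No member was called at 30 min, with 3 at an unadjusted p under 0.05 and 0.276% of all genes called (0.207% up and 0.0690% down). At 60 min 2 rose and 6 fell, where 10.9% of all genes were called (6.73% up and 4.18% down). At 120 min 2 rose and 13 fell, beside 11.3% of all genes (5.98% up and 5.30% down). At 240 min 4 rose and 16 fell, beside 27% of all genes (14.6% up and 12.4% down). Caged food against fasted livers had 0 called members in limma at each time. There, 2, 10, 5 and 0 members had an unadjusted p under 0.05 at 30, 60, 120 and 240 min, and 0.0126%, 0.220%, 0.0377% and 0% of all genes were called. Of all genes, 0.0126%, 0.138%, 0.0126% and 0% were called up, and 0%, 0.0816%, 0.0251% and 0% down.

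**Figure D1:**
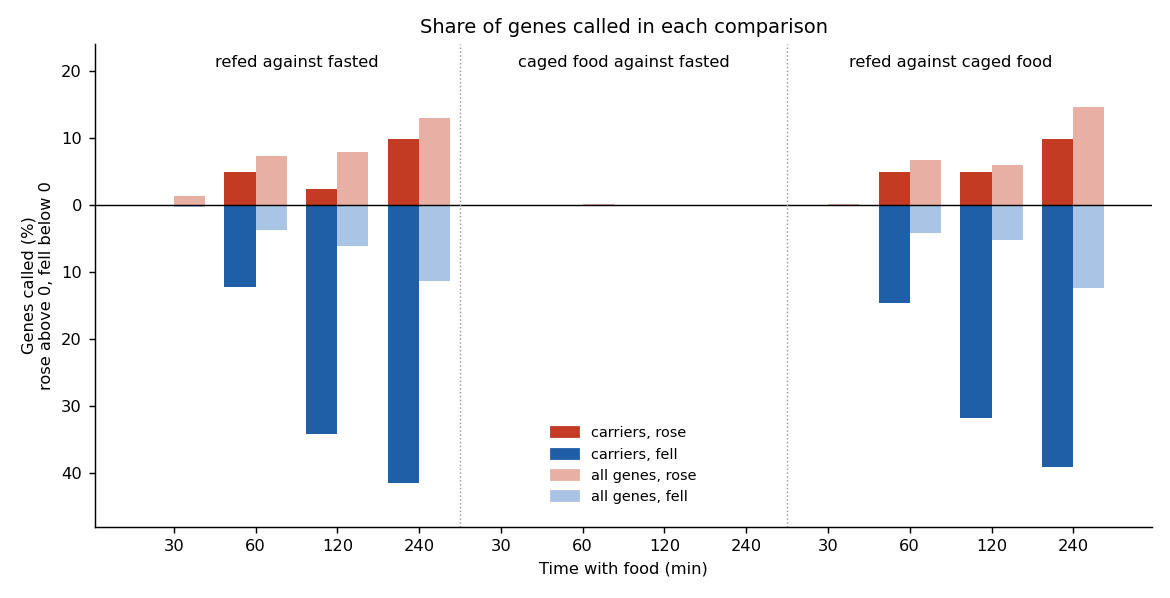
Share of the 41 carriers and of all 15932 genes called at an adjusted p under 0.05 (limma), in percent, split by direction, for each comparison. In refed livers the share of carriers that fell grew to 17 of 41 at 240 min, and no carrier was called between caged food and fasted livers.

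Over the 12 comparisons, 26 members were called at least once, 21 of them with falls only and 5 with rises only, and 15 were called in none. Of all genes, 40.4% were called at least once, 18.1% with falls only, 21.6% with rises only and 0.766% in both directions. Refed minus caged food itself varied over time for 13 members (limma F test, adjusted p under 0.05), beside 9.97% of all genes. Any difference among the 9 groups was called for 24 members, beside 34.8% of all genes. Summed over the 41 members, the family made up 0.408 ± 0.0208% of the library total in refed livers at 240 min and 0.554 ± 0.0233% in caged food livers at 240 min, against 0.536 ± 0.00681% in fasted livers (SD). The 3 refed libraries were at 0.386, 0.410 and 0.427%, below the 3 caged food libraries (0.528 to 0.574%) and the 3 fasted ones (0.531 to 0.544%). The sum weighs members by their counts. Slc25a47, Slc25a22 and Slc25a25, which fell strongly, are among its large terms, so it does not describe each member.

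**Figure D2:**
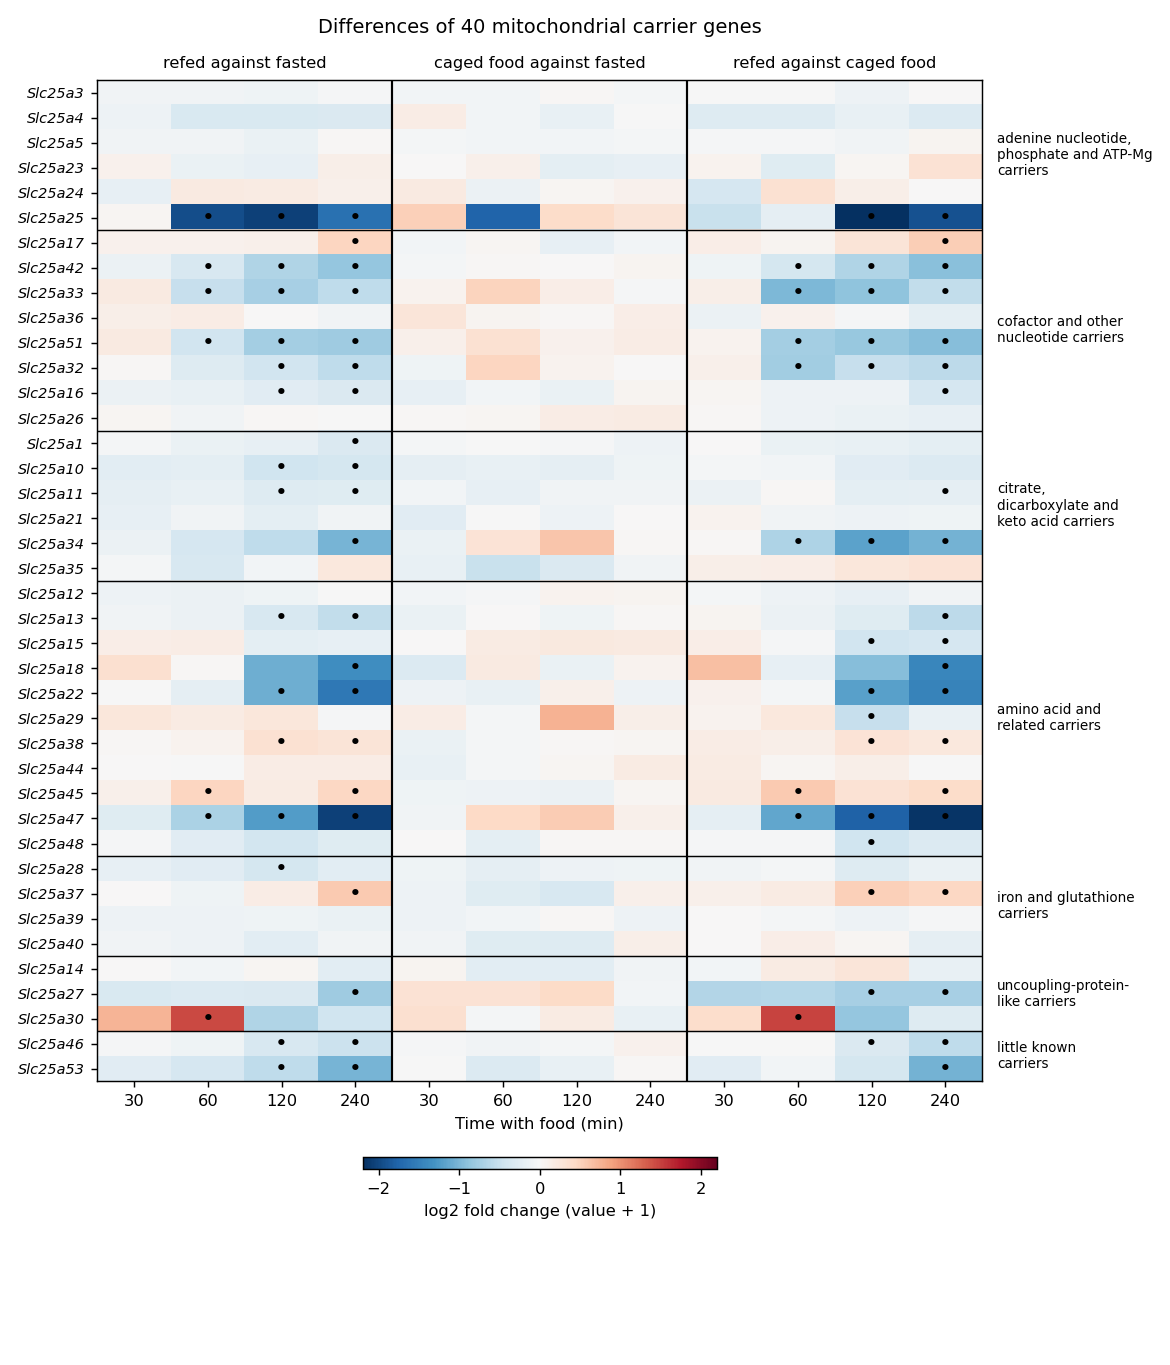
Log2 fold change of 40 carriers (rows, by role) in the 12 comparisons (columns), from limma on log2(normalised count + 1). A dot marks an adjusted p under 0.05. The dots lie in the refed columns of 60, 120 and 240 min, mostly on falls.

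Levels of the genes were compared per kilobase of exon. In fasted livers the 5 highest were Slc25a39 at 9328 ± 327 normalised counts per kb, Slc25a47 at 7799 ± 1138, Slc25a15 at 5171 ± 365, Slc25a13 at 4869 ± 136 and Slc25a10 at 4698 ± 115 (SD). Slc25a39 is needed for glutathione import into mitochondria, Slc25a47 is a carrier found mainly in the liver, Slc25a15 exchanges ornithine for citrulline, Slc25a13 (citrin) exchanges aspartate for glutamate, and Slc25a10 carries dicarboxylates. The ranges of Slc25a15 (4896 to 5586), Slc25a13 (4781 to 5026) and Slc25a10 (4596 to 4823) overlapped with that of the next in the order, whereas the lowest library of Slc25a39 (9138) was above the highest of Slc25a47 (9002). The 5 lowest were Slc25a18 at 5.58 ± 2.18, Slc25a36 at 17.2 ± 2.71, Slc25a53 at 17.8 ± 2.10, Slc25a40 at 24 ± 0.95 and Slc25a35 at 24.7 ± 4.92 normalised counts per kb. Of the family's sum per kb over all libraries, the 5 highest members held 51.6% and the 10 highest 79.1%. In refed livers at 240 min Slc25a47 was 10th in the order, against 2nd in fasted livers, and Slc25a22 was 11th, against 6th in fasted livers.

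**Figure D3:**
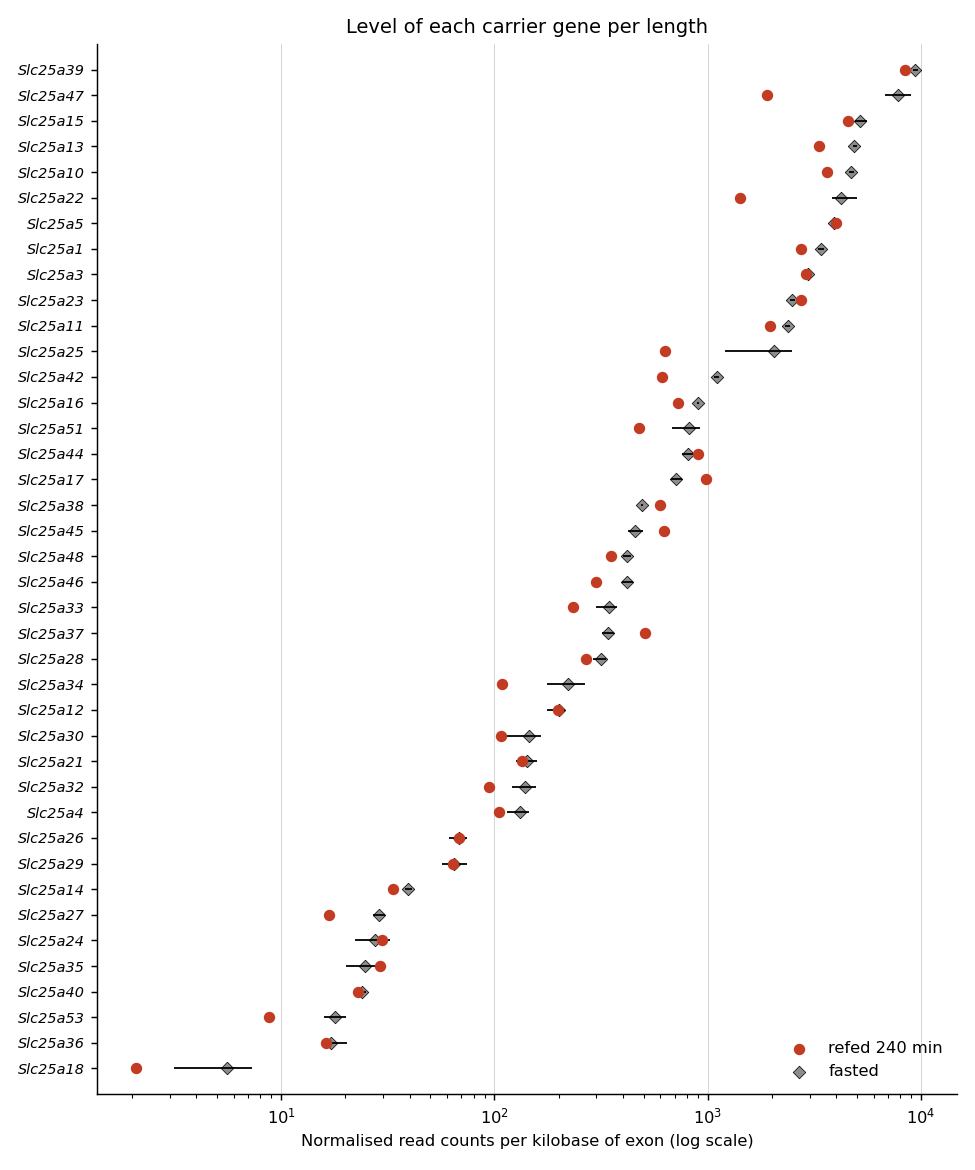
Level of 40 carriers in normalised counts per kilobase of exon on a log axis, ordered by the fasted mean. Bars give the range of the 3 fasted libraries, and the second marker gives the mean of refed livers at 240 min, which lies furthest below the fasted level for Slc25a47, Slc25a22 and Slc25a25.

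Among the 11 carriers of amino acids and related compounds, 4 fell and 2 rose at 240 min in refed against fasted livers, where 11.4% of all genes fell and 12.9% rose. Slc25a47 (ENSMUSG00000048856, chromosome 12, 108836046 to 108856815, plus strand, GRCm38) had the largest fall of the family at that time. Its substrate is still debated. It had 4714, 6063 and 6116 normalised counts in refed livers at 240 min, against 23933, 23502 and 27612 in caged food livers at 240 min and 26872, 20123 and 22844 in fasted livers. Every refed library was below every library of the other groups. Its log2 change was -2.05 ± 0.19 against fasted (SE, limma adjusted p 6.44e-08) and -2.16 ± 0.19 against caged food (adjusted p 2.63e-08). The refed mean was lower at each time, with 19318 ± 3165 at 30 min, 14554 ± 3252 at 60 min, 9930 ± 1182 at 120 min and 5631 ± 795 at 240 min. In caged food livers it was 22340 ± 4783, 31952 ± 6835, 34193 ± 5001 and 25016 ± 2259 at the same times, against 23280 ± 3396 in fasted livers (SD). Refed livers of 60 and 120 min did not overlap with fasted or caged food livers either. The fold changes there were -0.69 ± 0.19 (adjusted p 0.0174) and -1.23 ± 0.19 (adjusted p 9.34e-05) against fasted on the log2 scale, and -1.14 ± 0.19 (adjusted p 2.59e-04) and -1.78 ± 0.19 (adjusted p 1.17e-06) against caged food. The call against fasted livers at 60 min was lost without refed 60 min replicate 2 (adjusted p 0.118), fasted replicate 1 (0.0893) or fasted replicate 3 (0.0503). The 250 bases before the RefSeq start of Slc25a47 are shown for the carrier that fell most at 240 min, with the nuclear receptor half-site in capitals (chr12:108850879-108851128, plus strand, GRCm38.p6).
Slc25a47: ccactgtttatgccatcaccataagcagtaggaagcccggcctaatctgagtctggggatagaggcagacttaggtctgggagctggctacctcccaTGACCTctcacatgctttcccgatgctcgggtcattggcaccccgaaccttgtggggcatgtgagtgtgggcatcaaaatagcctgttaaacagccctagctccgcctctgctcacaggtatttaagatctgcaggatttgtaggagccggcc
The half-site, AGGTCA or TGACCT on the other strand, began 153 bases before the start. It occurred in 14.02% of all 32851 windows of this length and in 4 of the 42 windows of members (Slc25a34, Slc25a39, Slc25a45 and Slc25a47), and a match is a description of letters only.

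Slc25a22, a glutamate carrier, was the second amino acid carrier with a large fall. It had 7605, 10787 and 7148 normalised counts in refed livers at 240 min, against 25296, 22800 and 21323 in caged food livers and 22889, 29987 and 22829 in fasted livers. Refed livers of 120 min had 14037, 10520 and 11418, against 25234, 30644 and 25775 in caged food livers. Refed libraries of 120 and 240 min lay below all caged food and fasted libraries, whereas at 60 min the refed range, 17638 to 27576, overlapped with both. Its log2 fold change against fasted was -1.07 ± 0.17 at 120 min (limma adjusted p 1.21e-04) and -1.58 ± 0.17 at 240 min (adjusted p 4.49e-07), and against caged food -1.19 ± 0.17 (adjusted p 4.96e-05) and -1.46 ± 0.17 (adjusted p 1.11e-06). Slc25a18, the other glutamate carrier, had only 4, 1 and 7 in refed livers at 240 min, against 9, 9 and 15 in caged food livers and 12, 6 and 14 in fasted livers. Its refed values overlapped with the fasted ones and not with the caged food ones. At these low values its log2 fold change of -1.36 ± 0.44 against fasted (adjusted p 0.0272) moved to -0.81 without refed 240 min replicate 2 and was then not called (adjusted p 0.202). Against caged food it was -1.44 ± 0.44 (adjusted p 0.0181), and -0.89 without the same library (adjusted p 0.152).

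Carriers of the urea cycle and the malate-aspartate shuttle moved less. Slc25a13, citrin, had 12225, 12019 and 13748 in refed livers at 240 min, against 19700, 17615 and 19406 in caged food livers and 19087, 18160 and 18234 in fasted livers. No refed library reached the others. Its log2 fold change was -0.55 ± 0.11 against fasted (limma adjusted p 8.52e-04) and -0.58 ± 0.11 against caged food (adjusted p 4.31e-04). Against fasted at 120 min it was -0.35 ± 0.11 (adjusted p 0.037), a call lost in each of the 6 fits without 1 library. Its close relative Slc25a12, aralar, was called in none, with 1121 to 1779 over all libraries. Slc25a15 had 24818, 23165 and 29026 in refed livers at 240 min, against 33092, 31812 and 34746 in caged food livers and 27559, 31441 and 28330 in fasted livers. It was lower than in caged food livers at 120 min (log2 fold change -0.43 ± 0.10, adjusted p 0.00437) and 240 min (-0.38 ± 0.10, adjusted p 0.00454), was not called against fasted livers, and its refed and fasted values overlapped at 240 min. The 120 min call was lost under quantile normalization (adjusted p 0.0655).

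Slc25a29, which carries basic amino acids, was highest in caged food livers of 120 min. It had 187, 227 and 190 in refed livers at 120 min, against 288, 267 and 305 in caged food livers at 120 min and 165, 148 and 194 in fasted livers. The caged food libraries lay above both others, and refed and fasted libraries overlapped. Refed against caged food livers gave a log2 fold change of -0.51 ± 0.15 (limma adjusted p 0.0254), and the adjusted p reached 0.0923 when single libraries were left out. In caged food against fasted livers it was 0.77 ± 0.15 with an adjusted p of 0.0524, which misses the threshold, and this value was singled out after it was seen. Slc25a29 is the neighbour of Slc25a47 on chromosome 12, on the opposite strand, and their annotated GENCODE starts lie 162 bases apart. The RefSeq start used for the Slc25a47 window is a different one, further inside its annotated span. Slc25a48, reported to take up choline, was lower in refed livers at 120 min, with 1021, 1187 and 1004 against 1481, 1304 and 1568 in caged food livers. These do not overlap. The log2 fold change was -0.44 ± 0.14 (adjusted p 0.0442), and the adjusted p reached 0.150 without 1 library.

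Slc25a45 and Slc25a38 rose. Slc25a45, reported as a carrier of methylated amino acids, had 1903, 1758 and 1575 in refed livers at 60 min, against 1180, 1250 and 1076 in caged food livers at 60 min and 1173, 1367 and 1245 in fasted livers. At 240 min it had 1561, 1972 and 1651 in refed livers, against 1303, 1203 and 1380 in caged food livers. Refed libraries of both times were above all caged food and fasted ones. On the log2 scale it rose by 0.47 ± 0.10 at 60 min (limma adjusted p 0.00409) and 0.45 ± 0.10 at 240 min (adjusted p 0.00276) against fasted, and 0.58 ± 0.10 (adjusted p 6.50e-04) and 0.41 ± 0.10 (adjusted p 0.0049) against caged food. At 120 min, with 1456, 1407 and 1408 in refed livers, it was not called. Slc25a38, the glycine carrier that feeds heme synthesis, had 1560, 1813 and 1726 in refed livers at 120 min and 1679, 1618 and 1629 at 240 min, against 1384, 1405 and 1355 and then 1476, 1343 and 1369 in caged food livers, and 1340, 1347 and 1363 in fasted livers. No group of refed livers at these times overlapped with the others. Its log2 fold change against fasted was 0.33 ± 0.07 (adjusted p 0.00146) and 0.28 ± 0.07 (adjusted p 0.00311), and against caged food 0.30 ± 0.07 (adjusted p 0.00454) and 0.24 ± 0.07 (adjusted p 0.0106). Slc25a44, the branched-chain amino acid carrier, was called in no comparison of a pair of groups, with 2390 to 3484 over all libraries.

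Of the 6 carriers of adenine nucleotides, phosphate and ATP-Mg, 1, Slc25a25, fell at 240 min in refed against fasted livers and none rose. Of all genes, 11.4% fell and 12.9% rose there. Slc25a25 (ENSMUSG00000026819, chromosome 2, 32414487 to 32451445, minus strand, GRCm38) is a calcium-regulated carrier that exchanges ATP-Mg for phosphate and so sets the adenine nucleotide pool of the matrix. It had 2915, 4075 and 5095 normalised counts in refed livers at 60 min and 5076, 4621 and 3832 in caged food livers at 60 min, against 9452, 19588 and 19022 in fasted livers. Both fed and food-sensing livers of 60 min lay below all fasted libraries and overlapped with each other. This was a log2 fold change of -1.95 ± 0.39 in refed against fasted livers (limma adjusted p 0.00149). In caged food against fasted livers it was -1.76 ± 0.39, which missed the threshold at an adjusted p of 0.0552, passed it without fasted replicate 1 (adjusted p 0.0348) and ran up to 0.293 in the other fits. Against caged food livers of 60 min the log2 fold change in refed livers was -0.19 ± 0.39 (adjusted p 0.826), a value whose sign turned without refed 60 min replicate 1, and a p above the threshold does not show that they were alike.

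At later times Slc25a25 was low in refed livers. At 120 min it had 10432, 2263 and 2099 in refed livers, against 16620, 19435 and 24915 in caged food livers. Refed replicate 1 overlapped with the fasted range, and the other two refed libraries were lower. At 240 min it had 3792, 5343 and 5785 in refed livers, against 20834, 17850 and 16820 in caged food livers, with no overlap between refed livers and either other group. The log2 fold changes against fasted were -2.05 ± 0.39 at 120 min (limma adjusted p 8.17e-04) and -1.64 ± 0.39 at 240 min (adjusted p 0.00336), and against caged food -2.45 ± 0.39 (adjusted p 1.78e-04) and -1.91 ± 0.39 (adjusted p 7.36e-04). Without refed 120 min replicate 1 the 120 min values were -2.80 against fasted and -3.20 against caged food. At 30 min the values were 16602, 14656 and 15876 in refed livers and 28468, 19215 and 19359 in caged food livers, and neither group was called against fasted livers. Refed minus caged food varied over the 4 times for this gene (limma F test, adjusted p 0.0168).

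RefSeq gives Slc25a25 3 alternative starts, and the window before the start furthest into the gene holds a cAMP response element, TGACGTCA, which reads the same on both strands and is set in capitals (chr2:32424067-32424316, minus strand, GRCm38.p6). This window was picked because it holds the element, a textbook site of CREB. Which of the 3 starts is used in these livers and whether CREB binds there were not tested. A match is a description of letters only.
Slc25a25: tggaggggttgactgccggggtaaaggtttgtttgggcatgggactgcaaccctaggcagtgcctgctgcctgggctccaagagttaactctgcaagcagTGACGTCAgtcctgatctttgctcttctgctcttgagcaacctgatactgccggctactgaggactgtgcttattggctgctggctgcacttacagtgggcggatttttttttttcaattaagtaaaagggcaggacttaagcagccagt
The element began 150 bases before that start. It was found in 1.55% of all windows and in 2 of the 42 windows of members, those of Slc25a25 and Slc25a36. The other windows of Slc25a25 held none of the motifs searched. Its exons overlap those of Naif1 on the opposite strand over 4.82% of their length, and whether counting used strand is not given in the sources used here.

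The other 5 carriers of this group were called in no comparison, whereas 40.4% of all genes were called at least once. Slc25a3, the phosphate carrier, had 14322 to 17657 over all 27 libraries. Slc25a5, the main ADP/ATP carrier of the liver, had 5570 to 6768, and Slc25a4, the one of heart and muscle, 219 to 522. Slc25a23 and Slc25a24, the relatives of Slc25a25, had 8418 to 15844 and 63 to 121. On the log2 scale, the group means of Slc25a3 ranged over 0.12 and those of Slc25a5 over 0.16, against 2.58 for Slc25a25.

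Of the 9 carriers of cofactors and other nucleotides, 5 fell and 1 rose at 240 min in refed against fasted livers, beside 11.4% and 12.9% of all genes. Slc25a42, which brings coenzyme A into the matrix, had 3472, 3606 and 3926 in refed livers at 240 min, against 7443, 6643 and 6678 in caged food livers and 6675, 6752 and 6443 in fasted livers. At 60 min it had 5705, 5251 and 4699 in refed livers, against 6517, 6176 and 7693 in caged food livers. From 60 min on, no refed library reached the caged food or fasted ones. The log2 fold changes against fasted were -0.35 ± 0.09 at 60 min (limma adjusted p 0.0106), -0.66 ± 0.09 at 120 min (adjusted p 1.95e-05) and -0.85 ± 0.09 at 240 min (adjusted p 2.65e-07). Against caged food they were -0.38 ± 0.09 (adjusted p 0.00593), -0.66 ± 0.09 (adjusted p 1.92e-05) and -0.92 ± 0.09 (adjusted p 9.10e-08). The 60 min call was lost without refed 60 min replicate 3 against fasted livers (adjusted p 0.0804) and with only the groups compared in the fit against caged food livers (adjusted p 0.156).

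Slc25a51, the NAD carrier, followed a like course. It had 3343, 3541 and 3167 in refed livers at 60 min, 2752, 2968 and 2343 at 120 min and 2363, 2820 and 2663 at 240 min. Caged food livers had 5017, 5725 and 6205, then 5201, 4094 and 5174, then 4782, 5476 and 4762 at these times, against 4735, 5056 and 3758 in fasted livers. The refed libraries of these times lay below all others. Against fasted the log2 fold changes were -0.42 ± 0.11 at 60 min (limma adjusted p 0.0163), -0.74 ± 0.11 at 120 min (adjusted p 8.27e-05) and -0.78 ± 0.11 at 240 min (adjusted p 2.33e-05). Against caged food they were -0.75 ± 0.11 (adjusted p 8.90e-05), -0.84 ± 0.11 (adjusted p 2.31e-05) and -0.94 ± 0.11 (adjusted p 1.92e-06). The call at 60 min against fasted was lost without refed 60 min replicate 3 (adjusted p 0.0747), fasted replicate 1 (0.0685) or fasted replicate 2 (0.116), and with only the groups compared in the fit (0.0583).

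Slc25a33, a pyrimidine nucleotide carrier, was at its low level by 60 min. It had 435, 443 and 483 in refed livers at 60 min, against 851, 854 and 1016 in caged food livers and 665, 564 and 712 in fasted livers. At 120 min it had 421, 350 and 396, and at 240 min 396, 552 and 379, in refed livers. Caged food livers then had 685, 693 and 764, and 573, 709 and 619. No refed library of these times reached the others. The log2 fold changes were -0.51 ± 0.13 (limma adjusted p 0.0126), -0.73 ± 0.13 (adjusted p 4.72e-04) and -0.56 ± 0.13 (adjusted p 0.00283) against fasted at 60, 120 and 240 min. Against caged food they were -0.99 ± 0.13 (adjusted p 1.66e-05), -0.88 ± 0.13 (adjusted p 8.54e-05) and -0.53 ± 0.13 (adjusted p 0.00378). The call at 60 min against fasted was lost without fasted replicate 3 (adjusted p 0.0804). Its exons overlap those of an antisense transcript, Gm13068, over 14.9% of their length. Its window is shown for the E-box, CACGTG, a palindrome set in capitals (chr4:149774268-149774517, minus strand, GRCm38.p6).
Slc25a33: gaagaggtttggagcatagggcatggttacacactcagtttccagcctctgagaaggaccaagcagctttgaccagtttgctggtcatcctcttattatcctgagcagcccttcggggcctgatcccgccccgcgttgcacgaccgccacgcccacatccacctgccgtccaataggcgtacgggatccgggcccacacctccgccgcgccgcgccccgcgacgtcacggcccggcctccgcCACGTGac
The E-box stood 8 bases before the start, and 6.02% of all windows and 7 of the 42 windows of members, of 6 genes, held one (Slc25a1, Slc25a13, Slc25a14, Slc25a15, Slc25a33 and Slc25a36). Slc25a36, the other pyrimidine nucleotide carrier, has both an E-box and a cAMP response element there and was called in no comparison, with 147 to 217 over all libraries.

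Slc25a32, which carries folate and FAD, had 659, 620 and 814 in refed livers at 60 min, against 1338, 1112 and 1095 in caged food livers and 948, 865 and 736 in fasted livers. The refed libraries were below the caged food ones and overlapped with the fasted ones. At 240 min it had 536, 568 and 623 in refed livers, against 819, 931 and 813 in caged food livers, and stood below both other groups. Against caged food the log2 fold changes were -0.76 ± 0.12 at 60 min (limma adjusted p 1.90e-04), -0.51 ± 0.12 at 120 min (adjusted p 0.00751) and -0.57 ± 0.12 at 240 min (adjusted p 0.00129). Against fasted they were -0.43 ± 0.12 at 120 min (adjusted p 0.0212) and -0.56 ± 0.12 at 240 min (adjusted p 0.00181). The 120 min call against fasted was lost without refed replicate 3 (adjusted p 0.0843), fasted replicate 1 (0.112) or fasted replicate 2 (0.0712), and that against caged food without caged food replicate 2 (0.0549).

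Slc25a17, a carrier of coenzyme A and related cofactors in the peroxisome membrane, was the 1 member of its group that rose. It had 2754, 2687 and 2941 in refed livers at 240 min, against 1958, 1905 and 1924 in caged food livers and 1998, 2144 and 1918 in fasted livers. All 3 refed libraries were above the 6 others. The log2 fold change was 0.47 ± 0.11 against fasted (limma adjusted p 0.00398) and 0.53 ± 0.11 against caged food (adjusted p 0.00113). Slc25a16, often tied to coenzyme A supply, had 3347 to 3672 in refed livers at 240 min, against 4454 to 4492 in caged food livers and 4252 to 4355 in fasted livers, without overlap. This gave a log2 fold change of -0.31 ± 0.08 against fasted (adjusted p 0.00717) and -0.36 ± 0.08 against caged food (adjusted p 0.00183). At 120 min it was -0.25 ± 0.08 against fasted (adjusted p 0.039), a call lost in each fit without 1 library. Slc25a26, for S-adenosylmethionine, was called in no comparison, with 293 to 392 over all libraries.

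**Figure D4:**
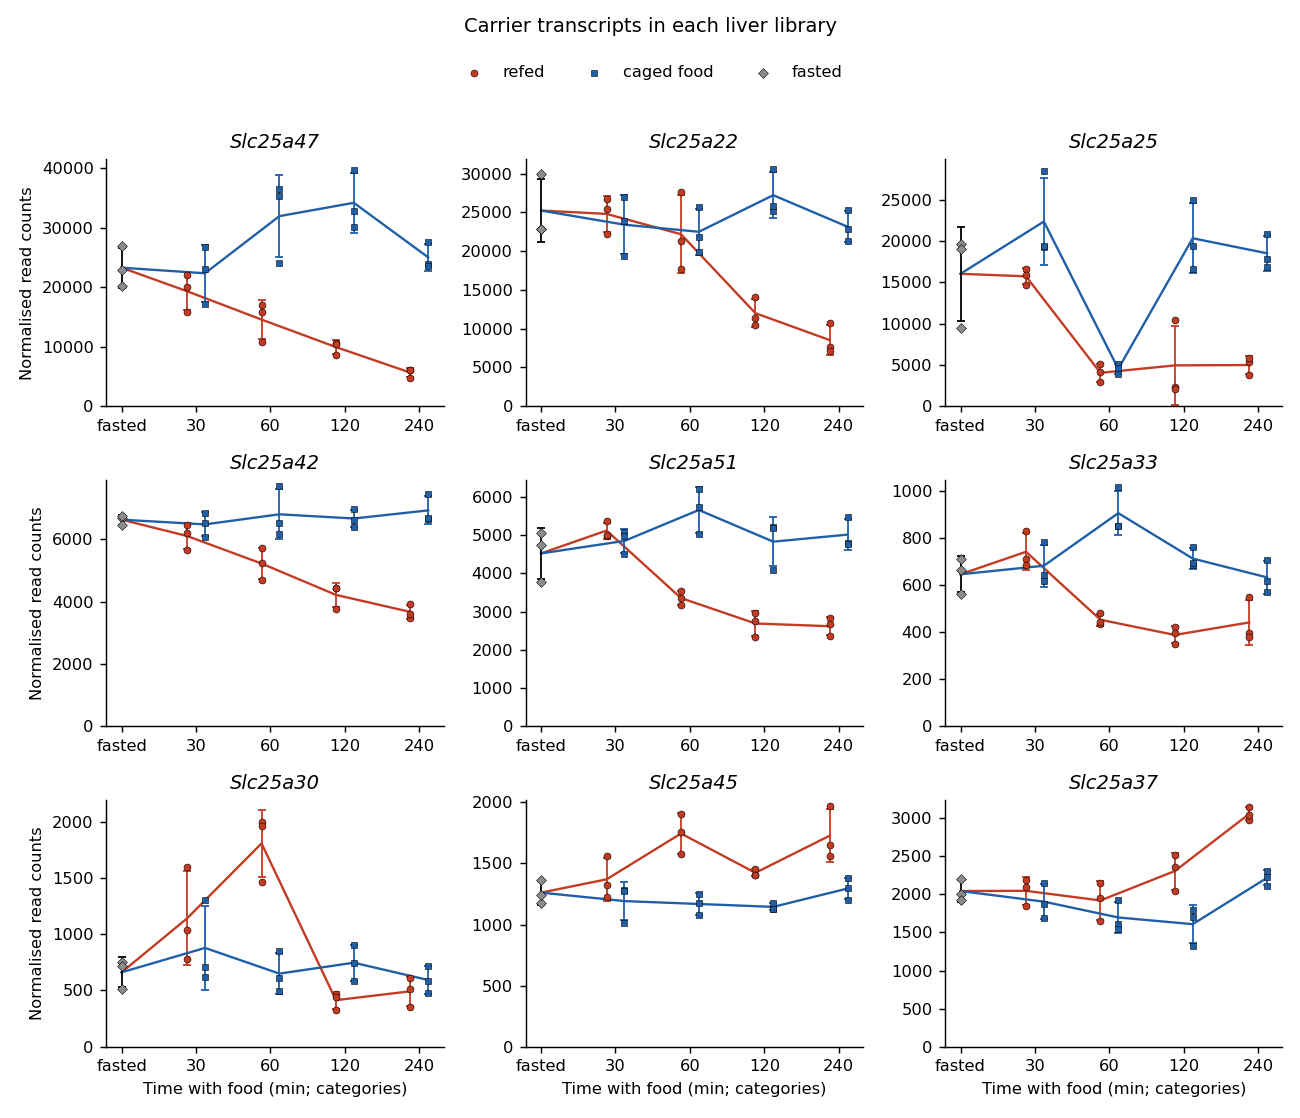
Normalised counts of 9 carriers by time with food, 1 point per library, with lines through the means of refed and caged food livers and the fasted libraries at 0 min. Slc25a47 and Slc25a22 ended lowest in refed livers at 240 min, Slc25a25 was low in refed livers from 60 min and in caged food livers at 60 min, and Slc25a30 was high in refed livers at 60 min.

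Among the 6 carriers of citrate, dicarboxylates and keto acids, 4 fell and none rose at 240 min in refed against fasted livers, again beside 11.4% and 12.9% of all genes. The largest fall was that of Slc25a34, a little-studied carrier, which had 330, 281 and 255 in refed livers at 240 min, against 507, 684 and 601 in caged food livers and 712, 472 and 593 in fasted livers. Refed livers of 120 min had 433, 340 and 420, against 812, 934 and 940 in caged food livers. Neither set of refed libraries overlapped with the caged food or fasted ones, but Slc25a34 was not called against fasted livers at 120 min. The log2 fold change was -1.02 ± 0.20 against fasted at 240 min (limma adjusted p 5.28e-04), and against caged food -1.17 ± 0.20 at 120 min (adjusted p 3.41e-04) and -1.04 ± 0.20 at 240 min (adjusted p 3.75e-04). At 60 min, where refed (437, 499 and 416) and caged food livers (838, 462 and 950) overlapped, it was -0.67 ± 0.20 (adjusted p 0.0297). That value was -0.99 without caged food 60 min replicate 2, the library of high Kupffer and leukocyte markers, and -0.47 without replicate 3 (adjusted p 0.158).

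Slc25a1, which exports citrate for fatty acid synthesis, had 5578, 6492 and 5597 in refed livers at 240 min, against 7337, 7083 and 7598 in fasted livers. The groups did not overlap, and the log2 fold change was -0.32 ± 0.09 (limma adjusted p 0.00843, and 0.0503 without refed 240 min replicate 1). It was not called against caged food livers, which had 7143, 6879 and 6415. Slc25a10, the dicarboxylate carrier, had 10720 to 12831 in refed livers at 120 min and 11315 to 14023 at 240 min, against 15878 to 16664 in fasted livers, again without overlap. Its log2 fold changes against fasted were -0.44 ± 0.13 (adjusted p 0.0238) and -0.39 ± 0.13 (adjusted p 0.0323). The adjusted p reached 0.110 and 0.145 without 1 library, and its exons overlap an antisense transcript over 6.60% of their length. It was not called against caged food livers at either time. Slc25a11, the oxoglutarate carrier of the malate-aspartate shuttle, had 4018 to 4218 at 120 min and 3858 to 4321 at 240 min in refed livers, against 4863 to 5141 in fasted livers. Its log2 fold changes against fasted were -0.28 ± 0.07 (adjusted p 0.00924) and -0.27 ± 0.07 (adjusted p 0.00725, and 0.0509 without refed 240 min replicate 2). Against caged food at 240 min it was -0.19 ± 0.07 (adjusted p 0.0455), a call that reached 0.213 without 1 library. Slc25a11 was not called against caged food at 120 min. Its exons overlap Rnf167 on the opposite strand over 8.92%. Slc25a21, the oxodicarboxylate carrier (439 to 812), and Slc25a35 (52 to 123) were called in none, and 31.3% of the exon length of Slc25a35 is shared with Rangrf on the opposite strand.

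Among the 4 iron and glutathione carriers, Slc25a37, mitoferrin 1, rose at 240 min in refed against fasted livers, beside 12.9% of all genes. Slc25a28, mitoferrin 2, fell at 120 min in refed against fasted livers, beside 6.13% of all genes. Both bring iron into the matrix. Slc25a37 had 2978, 3147 and 3041 in refed livers at 240 min, against 2312, 2229 and 2111 in caged food livers and 2011, 2197 and 1922 in fasted livers. The refed libraries were above all others. It rose, with a log2 fold change of 0.58 ± 0.12 against fasted (limma adjusted p 7.75e-04) and 0.46 ± 0.12 against caged food (adjusted p 0.00478). At 120 min, with 2353, 2521 and 2043 in refed livers against 1706, 1796 and 1324 in caged food livers, it was 0.53 ± 0.12 (adjusted p 0.00433). Against fasted livers Slc25a37 was not called at 120 min. The refed values then overlapped with the fasted ones, and all caged food values lay below the fasted ones. Slc25a37 is also abundant in red blood cell precursors, and the 7 erythroid markers, of which 6 were tested, were called in no comparison. Their sum ran over 4906 to 13551, and their part was not tested further. Slc25a28 had 913, 936 and 849 in refed livers at 120 min, against 1084, 1244 and 1206 in fasted livers, without overlap, a log2 fold change of -0.39 ± 0.09 (adjusted p 0.0055). It was not called against caged food livers at 120 min, nor at other times. Slc25a39 and Slc25a40, both tied to glutathione, were called in none. Slc25a39 kept 20867 to 27990 over all libraries and Slc25a40 130 to 250.

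Slc25a30, a carrier related to the uncoupling proteins and first described in kidney, had a short rise. It had 1464, 1993 and 1962 in refed livers at 60 min, against 608, 495 and 847 in caged food livers at 60 min and 754, 509 and 721 in fasted livers. The lowest refed library was 1464 and no library of the other groups at 60 min or in the fast was above 847. On the log2 scale it rose by 1.46 ± 0.28 against fasted (limma adjusted p 0.00108) and 1.49 ± 0.28 against caged food (adjusted p 9.53e-04). At 30 min it had 1038, 1600 and 784 in refed livers, which was not called (log2 fold change 0.74 ± 0.28, adjusted p 0.253). At 120 min it had 472, 329 and 441 and at 240 min 608, 514 and 357, and was not called either. Its window is shown because it rose most, and it held none of the 4 motifs, the fourth being a forkhead site, GTAAACA or TGTTTAC, which 3.17% of all windows and none of the 42 windows of members held (chr14:75787038-75787287, minus strand, GRCm38.p6).
Slc25a30: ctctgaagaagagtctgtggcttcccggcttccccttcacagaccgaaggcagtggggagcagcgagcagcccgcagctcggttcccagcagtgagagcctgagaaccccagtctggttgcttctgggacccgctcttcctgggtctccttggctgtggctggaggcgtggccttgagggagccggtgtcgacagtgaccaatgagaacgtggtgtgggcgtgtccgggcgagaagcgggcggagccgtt
The other 2 uncoupling-protein-like carriers were low. Slc25a27 had 53, 73 and 71 in refed livers at 240 min, against 123, 115 and 89 in caged food livers and 121, 112 and 106 in fasted livers, without overlap. Its log2 fold change was -0.79 ± 0.23 against fasted (adjusted p 0.0136, and 0.0865 without refed 240 min replicate 1). Against caged food it was -0.72 ± 0.23 (adjusted p 0.0205, and 0.114 without the same library). At 120 min it was -0.74 ± 0.23 against caged food (adjusted p 0.0366, up to 0.184 without 1 library). Slc25a14 was called in none, with 69 to 118 over all libraries.

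The 2 little-known carriers both fell at 240 min in refed against fasted livers, where 11.4% of all genes fell. Slc25a53 had 56, 79 and 75 in refed livers at 240 min, against 148, 128 and 155 in caged food livers and 127, 139 and 160 in fasted livers. These did not overlap, and the log2 fold change was -1.02 ± 0.15 against fasted (limma adjusted p 2.80e-05) and -1.04 ± 0.15 against caged food (adjusted p 1.74e-05). At 120 min, with 93, 112 and 85 in refed livers, it was -0.55 ± 0.15 against fasted (adjusted p 0.0145, and up to 0.084 without 1 library). Slc25a46, which sits in the outer membrane and takes part in mitochondrial fission, had 1628, 1514 and 1744 in refed livers at 240 min, against 2525, 2178 and 2540 in caged food livers and 2410, 2228 and 2156 in fasted livers. Again the refed libraries were the lowest. Its log2 fold change was -0.48 ± 0.10 against fasted (adjusted p 7.26e-04) and -0.57 ± 0.10 against caged food (adjusted p 1.04e-04), and at 120 min -0.36 ± 0.10 (adjusted p 0.0131) and -0.31 ± 0.10 (adjusted p 0.0353), calls lost without some single libraries.

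Partner genes of the carriers were read from 4 lists, and in refed against fasted livers their counts at 240 min stand beside 24.3% of all genes called, 12.9% up and 11.4% down. Of 9 tested genes of the carrier import route, Timm10b rose at 120 min (log2 fold change 0.31 ± 0.10, limma adjusted p 0.0403) and Tomm70a, the outer membrane receptor for carriers, at 240 min (0.21 ± 0.06, adjusted p 0.0181) in refed against fasted livers, and none fell. Of 21 other mitochondrial transporters, only Mpc2, a subunit of the pyruvate carrier, was called against fasted livers, with -0.32 ± 0.10 at 240 min (adjusted p 0.0289). Of 23 enzymes that use the carried metabolites, 1 rose and 5 fell at 240 min, a share near that of all genes. Got1, the cytosolic aspartate aminotransferase that works beside citrin, had the largest change, -1.62 ± 0.18 (adjusted p 6.42e-07). Asl and Arg1 of the urea cycle fell by 0.47 and 0.39 on the log2 scale (adjusted p 0.0378 and 0.0327), Fech and Tk2 fell as well, and Glud1, glutamate dehydrogenase, rose by 0.65 (adjusted p 5.85e-04). At 120 min Got1 (-0.88, adjusted p 0.00154) and Pcx, pyruvate carboxylase (-0.40, adjusted p 0.0256), fell, beside 6.13% of all genes. Of 11 regulators of mitochondrial genes, the coactivators Ppargc1a (-1.75 ± 0.22, adjusted p 4.42e-06) and Ppargc1b (-1.21 ± 0.23, adjusted p 3.52e-04) and Foxo1 (-0.69 ± 0.20, adjusted p 0.0119) fell at 240 min, and Creb1 rose (0.40 ± 0.08, adjusted p 7.31e-04). At earlier times Nr4a1 rose at 30 min (3.497 ± 0.40, adjusted p 1.77e-05), Ppargc1b fell (-1.72 ± 0.23, adjusted p 1.63e-05) and Creb1 rose (0.41 ± 0.08, adjusted p 0.00119) at 60 min, and Ppargc1a fell at 120 min (-1.81 ± 0.22, adjusted p 7.08e-06). In refed against caged food livers at 240 min, where 27% of all genes were called, 1 of 9 import genes, 2 of 21 other transporters, 6 of 23 enzymes and 6 of 11 regulators were called. In caged food against fasted livers, no gene of the 4 lists was called at any of the 4 times.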

How the data were processed

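Liver RNA was sequenced in 27 libraries after a stranded mRNA protocol. Per the submitters' processing notes, reads were handled with STAR 2.4.0a and featureCounts 1.4.5-p1 (Subread) on GRCm38 (mm10). The deposited score is a read count that the authors scaled per library and rounded to whole numbers, and the scaling method and the use of strand in counting are not given in the sources used here. Depth was estimated from the spacing of low values, where 1 read was worth 0.776 to 1.69 score units, and on simulated tables the estimate was off by at most 3.86%. These depths limit counting error only.

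Groups came from the sample titles. All 27 columns of the table were mapped. The design text speaks of 60 samples, and the rest are not analysed here. Of 45706 identifiers, 98.8% matched the GENCODE annotation of GRCm38 that gave coordinates and exon lengths, and all 41 members matched. Promoter windows of 250 bases came from RefSeq (GRCm38.p6), with 42 windows for 32 members and none for 9.

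Genes reaching 10 in 3 or more libraries were tested on log2(value + 1) with limma 3.58.1 in R 4.3.3, with a mean-variance trend and the 9 group means of all 27 libraries in 1 fit (18 residual degrees of freedom). Fold changes on this scale understate those of low genes. At each time, each pair of the 3 conditions was compared, beside F tests of the refed minus caged food difference over time and of any difference among groups. Benjamini-Hochberg adjustment ran over all genes tested. Values were also simulated from each gene's overall mean and residual spread, and refed 120 min was tested against fasted. There, 30 of 67, 48 of 67 and 58 of 66 genes changed by a fold of 1.5, 2 and 4 were called. Of 15508 unchanged ones, 11 were called. Fewer genes were changed there than the 2243 called in the data, which makes the adjusted threshold stricter. These shares therefore do not carry over to the data. Each p-value sets a difference of group means against the residual spread of these libraries over all 9 groups, moderated by the mean-variance trend.

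Members and lists were chosen with earlier results of these data known. Library values were given for up to 5 called members of largest change per direction and comparison, and the 5 highest and 5 lowest members per kb were named. Counts cover all 41 members, of which 1 is not reported here by itself. Uncalled fold changes of Slc25a25, Slc25a29 and Slc25a30 were added after they were seen. Replicate numbers do not pair the libraries: over 108 same-numbered pairs the mean correlation of residuals was -0.00944, and 8 of 27 libraries were closest to one of their own number. Alternatives were a pseudocount of 5, quantile normalization, no filter, a replicate block and only the groups compared. Others left out single libraries, those that stand apart or a set named for high pancreas markers, given below. The 2 libraries of conflicting labels were also left out or regrouped. Figures were drawn with matplotlib 3.10.9.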

Additional observations from a re-analysis of the deposited data

Results flagged for a closer look

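For 13 carriers refed minus caged food itself changed over the 4 times, by limma's F test with Benjamini-Hochberg adjustment over all genes tested. In order of the adjusted p, they were Slc25a22 (1.52e-04), Slc25a47 (1.91e-04), Slc25a51 (5.29e-04), Slc25a42 (5.94e-04), Slc25a33 (0.00110), Slc25a30 (0.00211), Slc25a32 (0.00773), Slc25a15 (0.0124), Slc25a53 (0.0155), Slc25a46 (0.0160), Slc25a25 (0.0168), Slc25a34 (0.0221) and Slc25a13 (0.0446). Slc25a22, Slc25a47, Slc25a51, Slc25a42, Slc25a53, Slc25a46 and Slc25a13 had their largest refed minus caged food difference at 240 min. For Slc25a30 it was at 60 min, with a log2 fold change of 1.49, beside 0.39 at 30 min, -0.84 at 120 min and -0.28 at 240 min. For Slc25a25 the log2 fold change was -0.19 at 60 min and -2.45 at 120 min. For Slc25a33, Slc25a32 and Slc25a51 it was 0.12, 0.12 and 0.08 at 30 min, and -0.99, -0.76 and -0.75 at 60 min. The call of Slc25a13 was lost in 20 alternative fits, most of them without 1 library. Those of Slc25a34 and Slc25a53 were lost without single libraries: Slc25a34 without refed 30 min replicate 2 (adjusted p 0.0654) or caged food 30 min replicate 1 (0.0600), and Slc25a53 without refed 240 min replicate 1 (0.0661) or caged food 240 min replicate 3 (0.0506).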

How the results depend on the processing

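Counts of called members held within 1.5 times under a pseudocount of 5, quantile normalization, no low-value filter, only the groups compared, and without the libraries that stand apart, those of high pancreas markers or the 2 of conflicting labels, wherever those libraries were in the groups compared. The set named for high pancreas markers held refed 30 min replicate 1 (marker sum 6408) and caged food 30 min replicate 2 (710). It also held refed 120 min replicate 1 (476) and refed 240 min replicate 1 (487), although libraries that were kept reached 551. Without this set the counts against fasted livers were 11 at 120 min and 16 at 240 min, beside 15 and 21. The part of pancreas RNA in these counts was not tested. With the 2 conflicting libraries left out they were 21 for refed 240 min against fasted and 18 against caged food. Grouped by their treatment label instead, the counts were 0 for refed 240 min against fasted livers (21 by titles), 0 against caged food livers (20 by titles), 1 for the difference over time (13 by titles) and 11 for any difference (24 by titles). Over all genes the same regrouping left 0 called (3879 by titles), 1 (4303), 43 (1588) and 1880 (5539), so the loss was not one of the carriers alone. The cause was not tested.

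Without 1 library the counts for refed against fasted livers were 0 to 0, 5 to 9, 10 to 13 and 18 to 21 at 30, 60, 120 and 240 min, and against caged food livers 0 to 0, 7 to 8, 11 to 13 and 18 to 20. For the F tests they were 11 to 15 over time and 21 to 26 for any difference. For caged food against fasted livers at 60 min they were 0 to 1, with the 1 being Slc25a25 without fasted replicate 1, and 0 at the other times. No called value changed sign. The uncalled log2 fold change of Slc25a25 in refed against caged food livers of 60 min, -0.19 in the full fit, ran from -0.38 to 0.025 without 1 library, and turned positive without refed 60 min replicate 1. The cause was not tested.

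The replicate numbers pair no samples here. With a replicate block in the fit, the counts were 7, 15 and 21 in refed against fasted livers at 60, 120 and 240 min, 8, 15 and 20 against caged food livers, 12 for the difference over time, 22 for any difference and 0 elsewhere.

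Several counts over all genes also moved. With only the groups compared in the fit, 465 genes were called in refed 60 min against caged food livers, beside 1738, and 1153 against fasted livers, beside 1754. Without the high-pancreas libraries, 2309 were called at 240 min against fasted livers, beside 3879, 2834 against caged food livers, beside 4303, and 133 at 30 min, beside 260. The 35 genes of caged food at 60 min went to 0 with only the groups compared and to 20 with the block, and the 44 of refed against caged food livers at 30 min to 20 with only the groups compared. Without those of high pancreas markers 624 genes differed over time, beside 1588, and 3681 among any groups, beside 5539. Leaving out 1 library moved some counts by over 1.5 times. For refed 30 min against fasted livers, 159, 89, 127 and 92 genes were called without refed replicate 1 or 2 or fasted replicate 2 or 3, beside 260. Against caged food livers 8, 15, 25 and 21 were called without refed replicate 2 or 3 or caged food replicate 1 or 3, beside 44. The 35 of caged food at 60 min went to 15, 10 and 16 without caged food replicate 1, 2 or 3, and to 5 and 2 without fasted replicate 2 or 3. At 60 min 1131 and 1155 were called in refed against fasted livers without fasted replicate 2 or 3, and at 120 min 1490 without fasted replicate 2, beside 2243. For refed 120 min against caged food livers 1111 were called without refed replicate 2, beside 1797, and 1040 differed over time without refed 240 min replicate 1. With 3 libraries a group, changes near a fold of 1.5 were often missed in the simulated data. Fewer genes were changed there than were called in the data, so this share does not carry over.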
